A study of Mus musculus with 8 samples.

Results

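The BCL2 family decides whether the outer membrane of mitochondria stays intact when a cell receives a death signal. It was followed here at 32 probe sets of 9 genes, out of 45037 probe sets on the array. They are all the probe sets that the platform annotation gives to exactly 1 gene, where that gene is Mcl1, Bcl2l1, Bcl2, Bcl2l2, Bak1, Bok, Bcl2l11, Bid or Bad. The tenth gene of the list, Bax, was not analysed here. Total RNA came from round spermatids, the haploid cells that follow meiosis, purified on an albumin gradient. Mutant mice carried BrdtΔBD1, a form of the germ cell protein Brdt without its first bromodomain, the module that binds acetylated histones. Control mice were of the same 129 Sv/Ev strain and the same age, 2 to 4 months. The sources used here state neither the zygosity of the mutants nor the genotype of the controls. There were 4 arrays per genotype, each made from 7 animals, and values are log2 intensities.

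Family members fall into 3 roles. Mcl1, Bcl2l1 (Bcl-xL), Bcl2 and Bcl2l2 (Bcl-w) hold mitochondria intact. Bak1 and Bok, like Bax, form pores in the outer membrane, through which cytochrome c escapes to activate caspases. Bcl2l11 (Bim), Bid and Bad carry a BH3 segment and bind the other members to set off or release the pore formers. In the testis the family governs the apoptosis that trims early germ cells, and Bcl2l2 is known to be needed for lasting sperm production in adult mice.

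Within pairs of same-numbered arrays, RNA of the protective gene Mcl1 was 1.57-fold to 2.37-fold higher in mutant arrays at 5 of its 6 probe sets, and 1 probe set of the BH3 gene Bcl2l11 passed as higher at a level below the array medians. These calls depend on the pairing. When arrays were compared without it, 0 of the 32 probe sets passed the threshold of 0.05 (limma, Benjamini-Hochberg adjusted over all probe sets), against 1.42% of all probe sets (0.717% higher and 0.702% lower in mutant arrays). The smallest adjusted p was 0.13. An unadjusted p under 0.05 was reached by 8 of the 32 (25.0%), 6 higher and 2 lower in mutant arrays, against 15.1% of all probe sets. The main test had no block. In these data same-numbered mutant and control arrays deviated together from their group means, so the number was also used as a block. That is, arrays were compared within the 4 pairs, though what the number stands for is not given. Limma with that block put 6 of the 32 probe sets (18.8%) above the threshold as higher in mutant arrays and 0 as lower, against 6.43% of all probe sets (3.92% higher and 2.5% lower). Of these 6, 5 belong to Mcl1 and 1 to Bcl2l11, so they are not independent readings. Mutant and control arrays did not overlap at 3 of the 32 probe sets (9.38%), close to the 9.48% of all probe sets. The median log2 difference of the 32 was 0.027, against -0.025 over all probe sets.

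**Figure D1:**
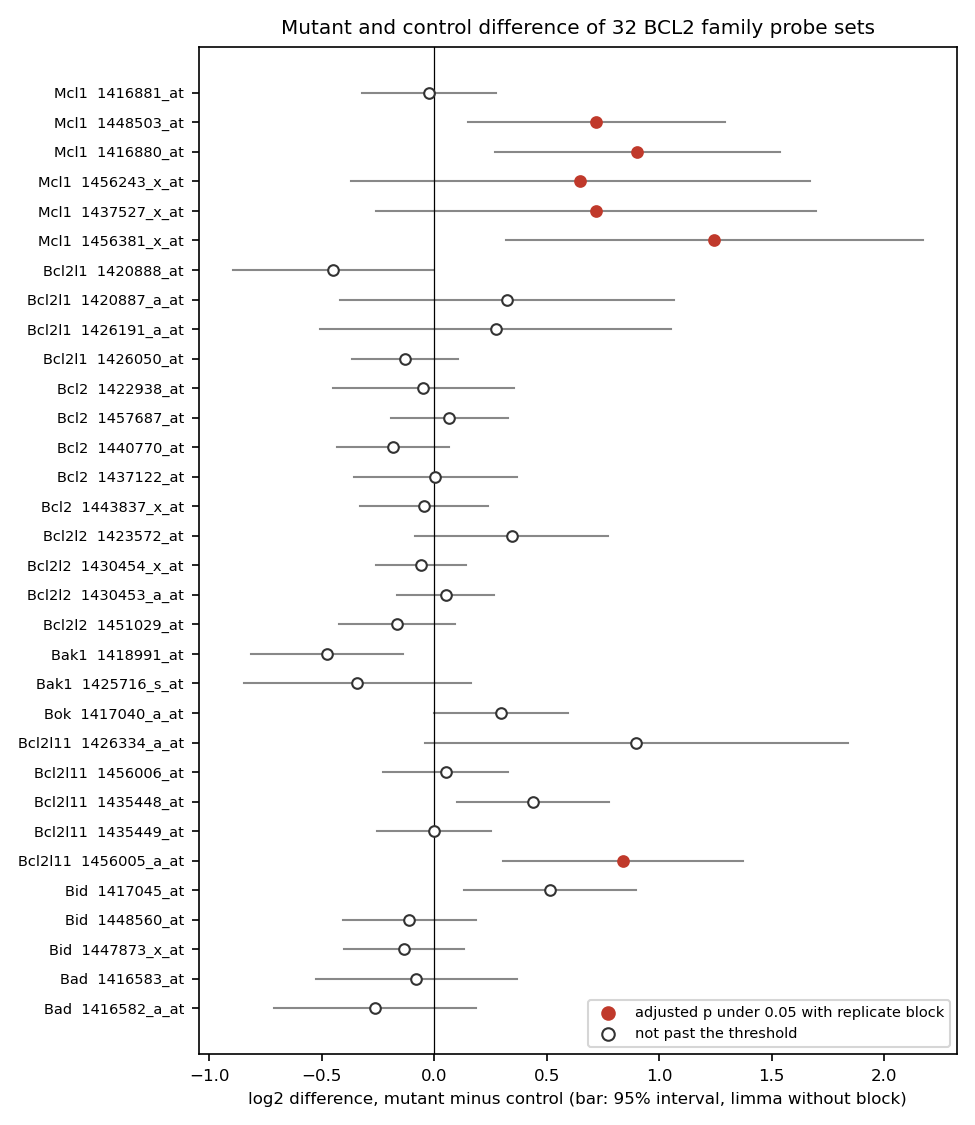
Log2 difference between mutant and control arrays (horizontal axis) for each of the 32 probe sets, with the 95% interval of the limma fit without a block. Filled points passed the threshold with the replicate block: 5 of Mcl1 and 1 of Bcl2l11, all to the right of 0.

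The arrays also differed in other measures. Markers of round spermatids were high in both groups, with a mean of 13.97 to 14.21 over 11 genes in mutant and 13.87 to 14.26 in control arrays, and 0 of the 11 changed with or without the block. Of 19 genes that mark Sertoli cells, the somatic nurse cells, 2 rose in limma without the block and 11 with it. Their mean level in mutants 1 to 4 came to 7.06, 5.81, 7.37 and 6.94, and in controls it spanned 4.79 to 5.62. Of the 19, 18 had a difference above 0, with a median of 1.54, and Fabp5 (4.01), Aard (3.05), Defb19 (3.01) and Vim (2.95) had the widest. Wt1 and Sox9, transcription factors of Sertoli cells, had differences of 1.15 and 0.0048, and Amh, which adult Sertoli cells make little of, read 1.95 and 1.97, below the array medians. Of 10 spermatogonia markers 0 rose without and 4 with the block, with list means of 5.30 to 5.84 against 4.47 to 4.96. Of 9 spermatocyte markers 0 rose without and 2 with the block, with means of 9.96 to 10.85 against 9.77 to 10.21. Of 11 peritubular, vascular and blood cell markers and 5 Leydig cell markers 0 rose either way, with means of 3.29 to 4.24 against 3.07 to 3.33 and of 2.91 to 3.69 against 2.69 to 3.02. Controls 1 and 3 differed from the other arrays in RNA quality: the Gapdh signal at the 3' end exceeded that at the 5' end by 1.68 and 2.05, against 0.33 to 0.94 elsewhere. The mean 18S rRNA signal was 11.20 and 8.87 on controls 1 and 3 and 8.11 on mutant array 1, against 3.65 to 5.51 on the other arrays. The part of other cells, of RNA quality and of rRNA signal in the results was not tested. In bulk RNA of this kind, fewer cells of a type and less RNA per cell cannot be told apart.

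The promoters of the 2 genes with a probe set past the threshold are printed here, since the mutated protein acts on chromatin. Each line gives the 250 bases before an annotated transcription start from RefSeq on GRCm38.p6, 5′ to 3′, and Bcl2l11 has 2 such starts. Capitals mark matches, on either strand, to the GC box GGGCGG, the CCAAT box CCAAT, the TATA box TATAAA and TGACG, the core of the cAMP response element bound by the spermatid activator Crem. None of the matches in these lines overlap.
Mcl1, chr3:95658471-95658720 (+ strand): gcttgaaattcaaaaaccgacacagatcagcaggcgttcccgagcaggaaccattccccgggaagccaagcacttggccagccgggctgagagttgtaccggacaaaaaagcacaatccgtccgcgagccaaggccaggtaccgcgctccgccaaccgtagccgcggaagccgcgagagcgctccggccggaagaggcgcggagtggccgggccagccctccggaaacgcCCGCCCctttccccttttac
Bcl2l11, chr2:128125788-128126037 (+ strand): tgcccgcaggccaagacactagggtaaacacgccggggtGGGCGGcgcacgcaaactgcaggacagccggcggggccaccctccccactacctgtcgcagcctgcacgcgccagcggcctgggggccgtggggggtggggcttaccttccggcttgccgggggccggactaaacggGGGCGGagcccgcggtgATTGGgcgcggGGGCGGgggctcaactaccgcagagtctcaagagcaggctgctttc
Bcl2l11, chr2:128127325-128127574 (+ strand): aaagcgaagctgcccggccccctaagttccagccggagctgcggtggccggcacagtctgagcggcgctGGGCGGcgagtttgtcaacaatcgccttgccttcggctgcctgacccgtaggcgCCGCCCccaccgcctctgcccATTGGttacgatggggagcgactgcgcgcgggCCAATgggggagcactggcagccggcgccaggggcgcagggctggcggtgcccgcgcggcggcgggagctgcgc
The Mcl1 window held 1 GC box, on the reverse strand and beginning 20 bases before the start. The windows of Bcl2l11 held 3 GC boxes with 1 CCAAT box and 2 GC boxes with 2 CCAAT boxes. TATAAA and TGACG matched in none of the 3 lines. Among the 32851 such windows of the table, 32.7% held a GC box, 33.8% a CCAAT box, 12.4% TATAAA and 17.8% TGACG. A match describes the letters and is no evidence of binding.

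Mcl1, a short-lived protein that restrains Bak1 and binds Bcl2l11, was read by 6 probe sets, and at 5 of them mutant exceeded control in 4 of 4 pairs. With the replicate block these 5 rose by 1.57-fold to 2.37-fold, while the remaining one, 1416881_at, was level. Probe set 1448503_at read 8.62, 9.54, 8.97 and 8.94 on control arrays 1 to 4 and 9.59, 10.37, 9.59 and 9.39 on mutant arrays 1 to 4. The groups overlapped only because control array 2 was high, and its partner was the highest of all. The difference was 0.72 (SE 0.25, adjusted p = 0.22, limma) and passed within pairs (SE 0.12, adjusted p = 0.022, limma with block).

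Probe set 1416880_at of Mcl1 read 8.34, 7.89, 7.93 and 7.21 in control and 8.81, 9.24, 8.78 and 8.16 in mutant arrays 1 to 4. Array 4 was the lowest of its genotype in both groups, and 3 of 4 mutant arrays lay above every control array. The level was 1.87-fold higher in mutant arrays (log2 difference 0.90, SE 0.28, adjusted p = 0.17, limma), and passed with the block (SE 0.15, adjusted p = 0.024).

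The other 3 Mcl1 probe sets that rose carry the suffix x_at, which marks sets with probes that can also match other transcripts. Of these, 1456381_x_at read 7.31, 6.29, 6.07 and 5.23 in control and 7.63, 7.96, 7.39 and 6.88 in mutant arrays. Its pairs differed by 0.32, 1.67, 1.33 and 1.66, so pair 1 moved least. The log2 difference of 1.24 had an adjusted p of 0.19 (SE 0.41, limma) and of 0.032 with the block (SE 0.23). For 1437527_x_at the control arrays ran from 5.68 to 7.47 and the mutant arrays from 6.38 to 7.86, with a difference of 0.72 (adjusted p = 0.50, and 0.031 with the block, limma). For 1456243_x_at they ran from 6.54 to 8.19 and from 7.10 to 8.96, with a difference of 0.65 (adjusted p = 0.56, and 0.049 with the block, limma). At 1437527_x_at and 1456243_x_at array 4 was the lowest of its genotype, and mutant exceeded control in 4 of 4 pairs. Over 10 fits with the block, 1456243_x_at passed in 2, and the other 4 Mcl1 sets that rose passed in 5 to 7.

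The probe set that did not follow, 1416881_at, read 10.61, 10.31, 10.46 and 10.45 in control and 10.61, 10.15, 10.35 and 10.62 in mutant arrays. Its difference was -0.024, with a 95% interval of -0.32 to 0.27, and it was above 0 without mutant array 2 or 3, without control array 1, and without control arrays 1 and 3 together. The 6 probe sets of Mcl1 differed from each other in their response in limma's diffSplice test with the block (adjusted p = 0.048), and did not pass without it (adjusted p = 0.9999). In that test 5.89% and 0.906% of 2870 genes passed. Against the mean of the other Mcl1 probe sets 1416881_at was lower by 0.87 in its response (adjusted p = 0.016 with the block, and 0.57 without it). The sources used here do not say which part of the transcript each set reads. Since 1416881_at has the highest mean of the 6, taking 1 probe set per gene gives Mcl1 a difference of -0.024, and averaging the 6 gives 0.70 (SE 0.27, adjusted p over genes 0.19, and 0.018 with the block, limma).

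**Figure D2:**
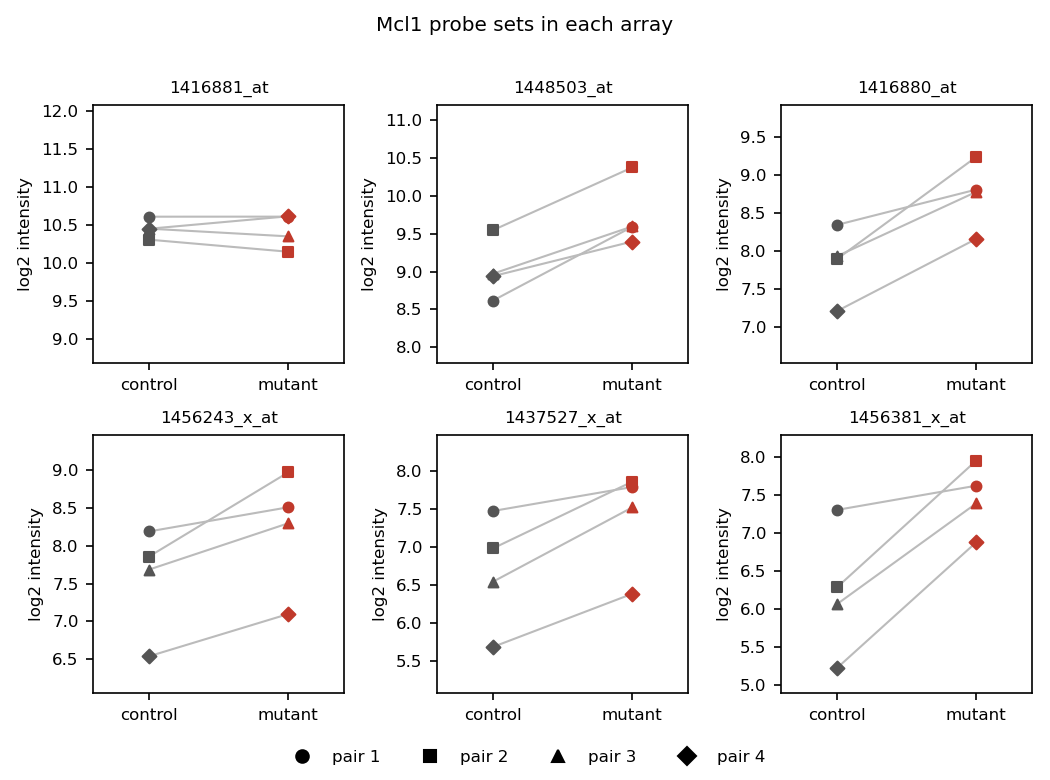
Log2 intensity (vertical axis, the same span in every panel) of the 6 Mcl1 probe sets in control and mutant arrays, with grey lines joining arrays of the same number. The line rises in all 4 pairs at 5 probe sets, and at 1416881_at the values stay between 10.15 and 10.62.

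The Mcl1 calls rest on few arrays. Without pair 3 their differences were 0.63 to 1.22 and 0 passed (adjusted p 0.099 to 0.18, limma), and without pair 4 they were 0.68 to 1.11 and 0 passed (adjusted p 0.052 to 0.14). Without pair 1, 3 of the 5 passed (1416880_at, 1437527_x_at and 1456381_x_at), and without pair 2, 2 passed (1448503_at and 1416880_at). Calls over all probe sets, both directions together, also fell in each of these fits. They fell most without pair 3 and least without pair 2 (counts in the last section). Without the block and control arrays 1 and 3 the differences were 0.50 at 1448503_at and 1.02 to 1.71 at the other 4, and 0 passed. Fewer of all probe sets passed in that fit too. With pairs 2 and 4 alone, which leaves out control arrays 1 and 3, the differences were 0.64 to 1.66 (adjusted p 0.060 to 0.23), and 0 of all probe sets passed in that fit. Mutant array 2, whose Sertoli marker mean of 5.81 was the lowest of the mutant arrays, was the highest mutant array at all 5 of these Mcl1 probe sets. Of the 9 spermatocyte markers, Hormad1, Spo11 and Sycp2 were also highest in mutant array 2 among mutant arrays (10.85, 9.93 and 11.36). The rest were highest in mutant array 1 or 4. Hormad1, Spo11, Sycp1 and Sycp3 exceeded control in 4 of 4 pairs, while Ccna1 and Tex15 were below control in 4 of 4 pairs. The pair differences of Hormad1, 1.47, 1.37, 0.95 and 0.59, fell in the same order as those of Mcl1 1448503_at, 0.97, 0.83, 0.62 and 0.46. The other 4 Mcl1 sets that rose did not share this order, since pair 1 had their smallest difference (0.32 to 0.47). Spo11 was also smallest in pair 1, with pair differences of 0.47, 1.72, 0.84 and 0.54. That is the order of Mcl1 1456243_x_at (0.32, 1.11, 0.61 and 0.56). Sycp1 and Sycp3 were smallest in pair 4 (0.040 and 0.73), as was Hormad1. The part of spermatocyte RNA in the Mcl1 values was not tested.

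**Figure D3:**
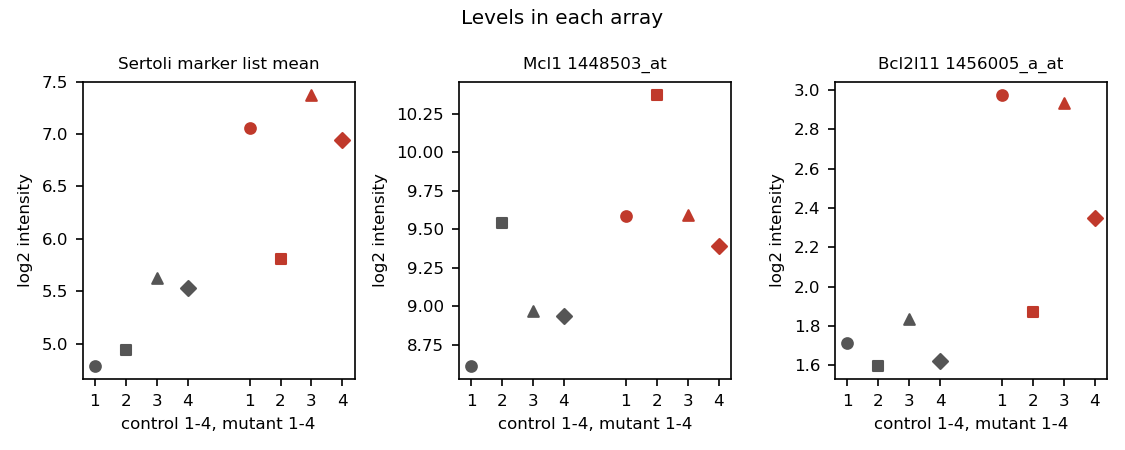
Log2 intensity in control arrays 1 to 4 and mutant arrays 1 to 4 of the mean of 19 Sertoli cell markers, of Mcl1 1448503_at and of Bcl2l11 1456005_a_at. Mutant array 2 is the lowest mutant array for the markers (5.81) and for Bcl2l11 (1.87) and the highest for Mcl1 (10.37).

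Bcl2l1, whose long form protects mitochondria, was read by 4 probe sets that did not move one way, and 0 passed with or without the block. Probe set 1420888_at read 9.79, 9.10, 9.30 and 9.18 in control and 8.57, 8.73, 9.02 and 9.26 in mutant arrays. It was lower in 3 of 4 pairs, with the widest gap in pair 1 (-1.23) and a difference of -0.45 (SE 0.20, adjusted p = 0.32, limma, and 0.27 with the block). Probe sets 1420887_a_at and 1426191_a_at had differences of 0.32 (SE 0.33) and 0.27 (SE 0.34) and were higher in 3 of 4 pairs each, most in pair 3. Without control arrays 1 and 3 these last differences were -0.10 and -0.18, and that of 1420888_at was -0.25. Probe set 1426050_at lay between 2.09 and 2.49 on all arrays. The diffSplice test over the 3 sets with a mean of at least 4 gave an adjusted p of 0.32 with the block and 0.95 without it.

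Bcl2, the founding protective member, read near the floor of the array at its 5 probe sets, between 1.81 and 3.27 on all 8 arrays, where array medians were 3.10 to 3.14. Its differences ran from -0.19 to 0.066 (adjusted p 0.49 to 0.996, limma, and 0.43 to 0.99 with the block). The 95% intervals of the 5 sets together span -0.45 to 0.37 on the log2 scale. Without control arrays 1 and 3 the differences ran from -0.29 (1422938_at) to 0.15 (1437122_at). Bcl2l2 was read by 4 probe sets between 2.20 and 3.60. The highest of them, 1423572_at, read 2.71, 2.89, 2.74 and 3.12 in control and 3.60, 2.74, 3.38 and 3.11 in mutant arrays. Mutant arrays 1 and 3 were above all controls there and mutant arrays 2 and 4 were not, and the difference of 0.34 did not pass (SE 0.19, adjusted p = 0.45, limma). The other 3 sets had differences of -0.17 to 0.051. Without control arrays 1 and 3 the difference of 1423572_at was 0.20 and the others ran from -0.30 to 0.11.

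Among the pore formers, Bak1 was lower at both of its probe sets in all 4 pairs, short of the threshold. Probe set 1418991_at read 4.33, 4.15, 4.21 and 4.79 in control and 4.00, 3.96, 3.80 and 3.80 in mutant arrays. All mutant arrays lay below all control arrays, which made it the 1 member probe set with that order. The difference was -0.48 (SE 0.15, 95% interval -0.82 to -0.14, adjusted p = 0.17, limma, and 0.12 with the block). Probe set 1425716_s_at, near the floor, read 2.44 to 3.29 in control and 2.12 to 2.97 in mutant arrays. It had a difference of -0.34 (SE 0.22, adjusted p = 0.54, and 0.15 with the block, limma). Without control arrays 1 and 3 the latter difference was -0.57.

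Bok, the pore former that works without the help of BH3 proteins, was read by 1 probe set, 1417040_a_at. It gave 2.95, 3.14, 3.26 and 2.75 in control and 3.14, 3.35, 3.43 and 3.35 in mutant arrays, all near the array medians of 3.10 to 3.14. Mutant exceeded control in 4 of 4 pairs by 0.17 to 0.61, the groups overlapped, and the difference of 0.29 did not pass (SE 0.13, adjusted p = 0.34, limma, and 0.20 with the block).

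Of the BH3 members, Bcl2l11, which binds every protective member, had 5 probe sets with unlike values, and 1 of them rose with the block. Probe set 1456005_a_at read 1.71, 1.60, 1.84 and 1.62 in control and 2.98, 1.87, 2.94 and 2.35 in mutant arrays. All mutant arrays lay above all control arrays, and mutant arrays 1 and 3 were about 1 unit above array 2. The difference was 0.84 (SE 0.24, adjusted p = 0.13, limma) and passed with the block (SE 0.17, adjusted p = 0.041). Both group means lie below the array medians. Without pair 2 it still passed (1.03, adjusted p = 0.019), and without pair 1, 3 or 4 it did not (adjusted p 0.10, 0.18 and 0.12, limma with block). Without a block and without mutant array 2 it was the 1 member probe set that passed (adjusted p = 0.020). Calls over all probe sets varied widely between fits with 1 array or 1 pair left out (counts in the last section).

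Bcl2l11 probe set 1426334_a_at read 4.87, 4.88, 4.33 and 4.58 in control and 6.88, 4.74, 5.03 and 5.60 in mutant arrays. Mutant array 1 stood 1 unit or more above the rest, and mutant array 2 was below its partner. The difference of 0.90 did not pass (SE 0.41, adjusted p = 0.35, limma, and 0.16 with the block), but passed with the block when pair 2 was left out (1.24, adjusted p = 0.0496). Probe set 1435448_at read 2.46 to 2.67 in control, below the array medians, and 2.72 to 3.41 in mutant arrays without overlap. Its difference of 0.44 did not pass (adjusted p = 0.20, limma, and 0.085 with the block). Probe sets 1456006_at and 1435449_at had differences of 0.050 and -0.00089. At 1456005_a_at, 1426334_a_at and 1435448_at mutant array 2 was the lowest mutant array, as it was for the Sertoli marker mean. It was also the lowest for the mean of peritubular, vascular and blood cell markers (4.24, 3.29, 3.44 and 3.46 in mutant arrays 1 to 4). The means of spermatogonia, spermatocyte and Leydig cell markers were lowest in mutant array 4. The part of these cells in the Bcl2l11 values was not tested.

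**Figure D4:**
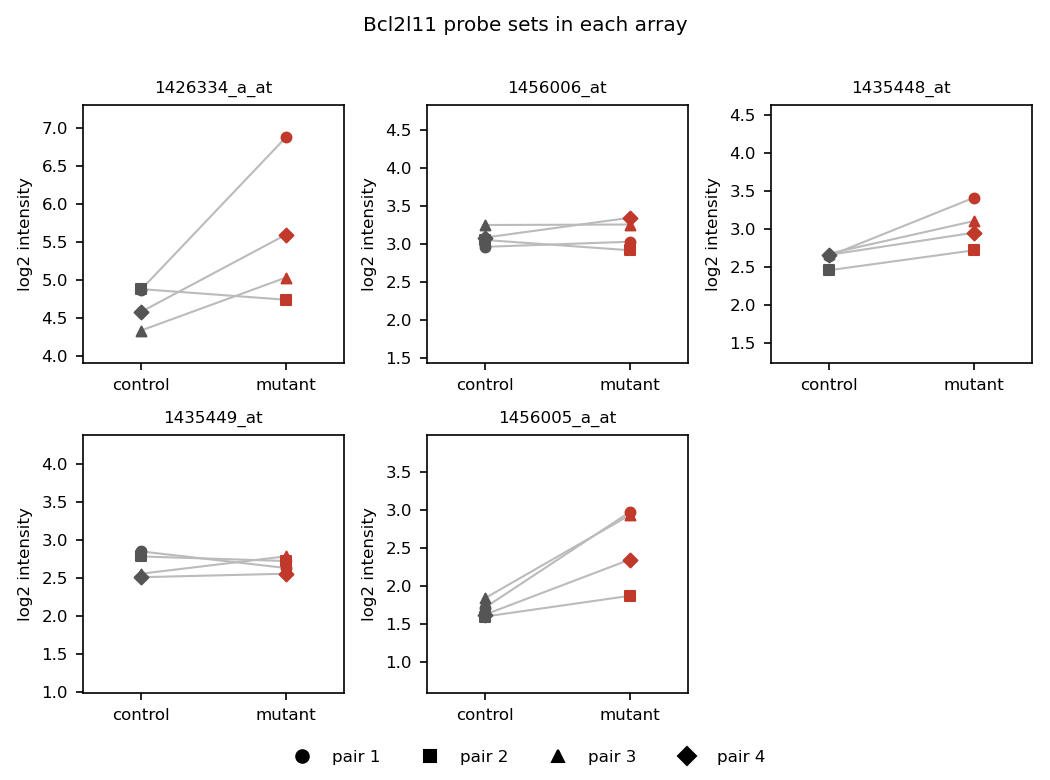
Log2 intensity (vertical axis, the same span in every panel) of the 5 Bcl2l11 probe sets in control and mutant arrays, with grey lines joining arrays of the same number. Probe sets 1435448_at and 1456005_a_at rise from control to mutant in 4 of 4 pairs, and 1435449_at stays between 2.51 and 2.84.

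Bid, which caspase-8 cuts to carry death receptor signals to mitochondria, had 3 probe sets between 2.53 and 3.86, around the array medians of 3.10 to 3.14. Probe set 1417045_at read 2.78, 3.18, 3.07 and 3.42 in control and 3.86, 3.81, 3.38 and 3.45 in mutant arrays. Mutant exceeded control in 4 of 4 pairs, by 1.08 in pair 1 and 0.029 in pair 4, and the difference of 0.51 did not pass (SE 0.17, adjusted p = 0.19, limma, and 0.16 with the block). The other 2 sets, 1448560_at and 1447873_x_at, had differences of -0.11 and -0.14. Without control arrays 1 and 3 the differences of 1417045_at and 1447873_x_at were 0.32 and -0.27. Bad, whose binding to protective members is blocked by phosphorylation and 14-3-3 proteins, read well above the floor. Its probe set 1416582_a_at gave 9.28, 8.82, 8.60 and 9.40 in control and 8.99, 8.66, 8.49 and 8.90 in mutant arrays. It was lower in all 4 pairs by 0.11 to 0.50 with overlapping groups, and the difference of -0.26 did not pass (SE 0.20, adjusted p = 0.60, limma, and 0.22 with the block). At 1416583_at the difference was -0.080, with a 95% interval of -0.53 to 0.37.

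The genes that act with the family in apoptosis were taken from 6 lists of 73 genes, of which 64 had a single-gene probe set. A gene is counted when any of its probe sets passed. In limma without the block 2 of the 64 rose (3.13%, against 1.47% of all genes) and 0 fell (against 1.48%), and with the block 9 rose (14.1%, against 7.44%) and 1 fell (1.56%, against 5.1%). The risers without the block were Cycs and Ywhaz.

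Of 12 genes of mitochondrial release and the apoptosome, 1 rose without the block and 4 with it, and 0 fell either way. Cycs encodes the somatic cytochrome c that Bak1 pores release. Its probe set 1456071_a_at read 8.25, 8.28, 8.83 and 8.26 in control and 11.35, 9.54, 10.61 and 9.96 in mutant arrays. Every mutant array was above every control array, array 1 most and array 2 least. The level was 3.89-fold higher (log2 difference 1.96, SE 0.36, adjusted p = 0.039, limma, and 0.017 with the block). Probe sets 1422484_at and 1422483_a_at of Cycs had differences of 2.84 and 2.36 (adjusted p = 0.056 and 0.10, limma, and 0.018 and 0.016 with the block), and 1445484_at, near the floor, had -0.12. Mutant arrays 1 and 2 were also the second highest and the lowest mutant arrays for the Sertoli marker mean, 7.06 and 5.81. For the mean of peritubular, vascular and blood cell markers they were the highest and the lowest, 4.24 and 3.29. Cyct, the testis cytochrome c, rose with the block alone, from 11.03 ± 0.21 to 11.57 ± 0.40 (SD, n = 4; adjusted p = 0.042, and 0.245 without the block, limma). The other genes that passed with the block were Vdac1, an outer membrane channel, at 2 of its 5 probe sets (differences 1.44 and 1.20), and Casp9, the caspase of the apoptosome, at 1 of 3 (1437537_at, mean 3.64, difference 0.53). The other Casp9 sets, 1457816_at and 1426125_a_at, had differences of -0.17 and -0.10 and did not pass, and those of the other 3 Vdac1 sets ran from -0.046 to 1.34.

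**Figure D5:**
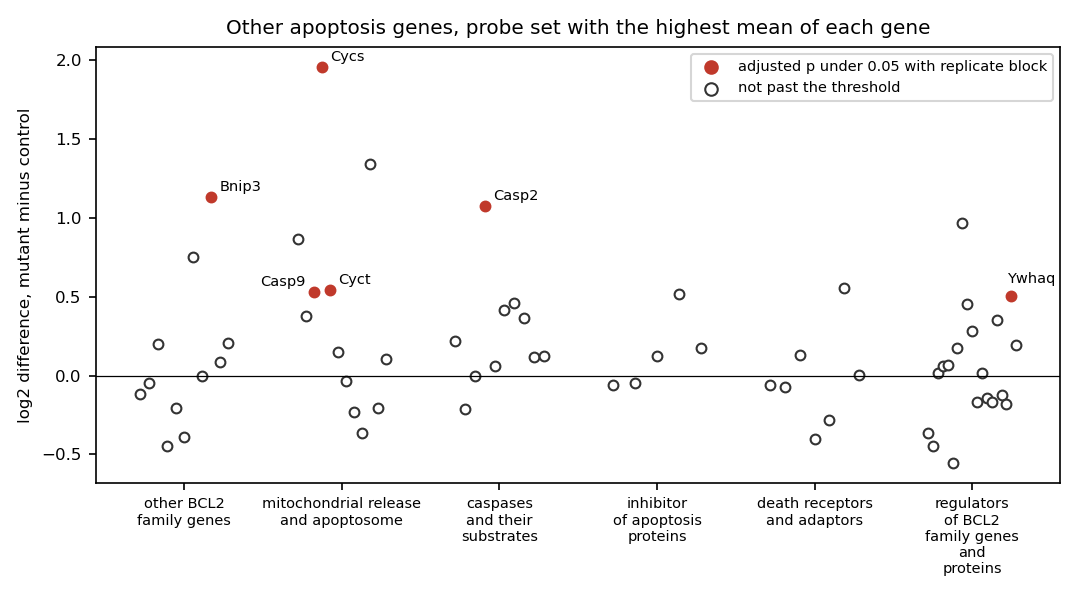
Log2 difference between mutant and control arrays (vertical axis) of 64 other apoptosis genes in 6 lists (horizontal axis), each at its probe set with the highest mean. Filled points passed with the replicate block at that probe set, and Cycs is the highest at 1.96. Bcl2l14, Vdac1, Ywhaz and Mapk9 passed at another of their probe sets and are open here.

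Of 11 other BCL2 family genes 0 passed without the block, and with it 1 rose and 1 fell. The one with the smallest p was Bcl2l14, a BCL2-like gene also called Bcl-G. Its probe set 1429347_at read 8.58, 8.01, 8.45 and 8.59 in control and 7.19, 6.21, 7.41 and 7.71 in mutant arrays. Every mutant array lay below every control array, and the level was 2.42-fold lower (log2 difference -1.28, SE 0.30, adjusted p = 0.083, limma, and 0.012 with the block). A brighter probe set of Bcl2l14, 1424814_a_at, had a difference of -0.20 (SE 0.18, adjusted p = 0.66, limma). The gene that rose with the block was Bnip3, a mitochondrial protein of mitophagy (difference 1.13, adjusted p = 0.049).

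Of 10 caspases and caspase substrates 0 passed without and 1 with the block. That was Casp2, an initiator caspase, at 3.73 ± 0.33 in control and 4.80 ± 0.38 in mutant arrays (SD, n = 4; adjusted p = 0.058, limma, and 0.028 with the block). Of 5 inhibitor of apoptosis proteins and 7 death receptors and adaptors 0 passed either way. The smallest p among them belonged to Xiap, which blocks caspases, at a probe set near the floor (-0.33, adjusted p = 0.19, limma) and to Tnfrsf1a, a receptor of tumour necrosis factor (0.56, adjusted p = 0.27). Another Xiap probe set, 1437533_at, had a difference of 1.11 (adjusted p = 0.24, limma).

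Of 19 regulators of the family 1 rose without the block and 3 with it, and 0 fell. Ywhaz encodes a 14-3-3 protein of the kind that holds phosphorylated Bad away from mitochondria. Its probe set 1448218_s_at read 2.35 to 2.77 in control and 3.07 to 3.92 in mutant arrays (log2 difference 1.01, SE 0.18, adjusted p = 0.040, limma). All its control values lie below the array medians of 3.10 to 3.14, so the size of this difference rests on values at the floor. At the brightest Ywhaz probe set, 1448219_a_at, the difference was 0.19 (SE 0.16, adjusted p = 0.63, limma, and 0.30 with the block). Another Ywhaz set, 1436971_x_at, lay above the floor, at 4.52 to 6.06 in control and 6.54 to 7.89 in mutant arrays. Its difference of 2.00 passed with the block alone (adjusted p = 0.022, and 0.054 without the block, limma). The related Ywhaq passed with the block at 3 of its probe sets (1460590_s_at, 1420828_s_at and 1432842_s_at), with differences of 0.51 to 0.96. Other Ywhaq sets did not pass, among them 1420829_a_at (0.42), 1436846_x_at (0.33) and 1420830_x_at (0.24). The stress kinase gene Mapk9 (JNK2) passed with the block at 1 (1421878_at, 0.47). The 2 brighter Mapk9 sets, 1421877_at and 1421876_at, had differences of -0.16 and -0.28 and did not pass.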

How the data were processed

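The authors deposited normalized log2 intensities, 1 for each probe set and array. GCRMA and limma are named, with no version, in the submitters' processing notes. GCRMA pulls dim probe sets towards a floor, which shrinks their differences. Of 45101 probe sets, 64 array controls were left out. The platform annotation gives 1 gene to 34945 of the rest, several to 932 and none to 9160, and symbols were updated by Entrez identifier (34741 found). The genotypes were tested against each other in limma 3.58.1 (R 4.3.3) over all 45037 probe sets, both directions, with Benjamini-Hochberg adjustment, and checked on simulated data. Every array had its own animals, but what a replicate number stands for is not given in the sources used here. Deviations from group means correlated at 0.40 to 0.54 for same-numbered arrays and at -0.31 to 0.07 for others, so blocked values are printed where they change a call. Differences between probe sets of a gene were tested with diffSplice over sets with a mean of at least 4, which 13 of the 32 reached.

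Members, gene lists and tests were chosen with earlier results of these data known. From each list of other apoptosis genes up to 3 genes past the threshold are named, or the 1 with the smallest p. Genes named because they passed with the block, and further probe sets of named genes, were chosen after their values were seen. Bax and 9 list genes were not analysed here. Alternatives left out arrays, changed normalization, filter, variance model and weights, and took genes in place of probe sets. The number of arrays limits the precision.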

Additional observations from a re-analysis of the deposited data

Results flagged for a closer look

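At 3 probe sets 1 of the 4 control arrays lay far from the other 3, among 96 groups of 4 arrays looked at, and chance alone gives about 1 such group in 20. Bcl2 1437122_at read 2.57 on control array 3 and 2.01 to 2.05 on the other controls. Cycs 1456071_a_at read 8.83 on control array 3 and 8.25 to 8.28 on the other controls, so that array was the nearest to the mutant arrays. Bcl2l11 1435448_at read 2.46 on control array 2 and 2.64 to 2.67 on the other controls, a gap in a narrow group.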

How the results depend on the processing

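Over the alternatives without a block, 0 member probe sets passed except 1 without mutant array 2. With the replicate block 6 passed, and 5 when quantile normalization, centring on bright probe sets, an intensity trend or a minimum mean of 4 was added, the block combinations being chosen after seeing the data. Leaving out 1 array, or 1 pair with the block, gave 0 to 4 higher and 0 lower. Over all probe sets 323 were higher and 316 lower; 1767 and 1127 with the block, 5 and 30 without control arrays 1 and 3, 406 and 587 after quantile normalization, 558 and 467 after centring, 533 and 391 with a minimum mean of 4, 804 and 535 with array weights, and 74 to 936 and 115 to 387 with 1 array left out. With the block and without pair 1, 2, 3 or 4, 912, 1840, 104 and 570 were higher and 622, 945, 122 and 381 lower. They were, with the block, 0 and 0 for pairs 2 and 4, 1560 and 1521 after quantile normalization, 1671 and 1277 after centring, 2234 and 1168 with a trend and 1671 and 1094 with a minimum mean of 4. Genes whose probe sets differed numbered 26, and 169 with the block, 2 without control arrays 1 and 3, 383 without a minimum mean, 17 with a minimum of 5 and 10 to 36 with 1 array left out. The causes were not tested. Some signs turned. Without control arrays 1 and 3 the values were -0.014, 0.10, -0.10, -0.18, 0.027 and 0.052 for 1457687_at, 1443837_x_at, 1420887_a_at, 1426191_a_at, 1435449_at and 1416881_at. They were 0.028 for 1435449_at after quantile normalization, -0.021 for 1437122_at after centring, and -0.0048, -0.0079 and 0.035 for 1457687_at, 1437122_at and 1435449_at with array weights. Averaging probe sets gave 0.0032 for Bcl2l1 and 0.70 for Mcl1 against -0.45 and -0.024 at their brightest sets. With 1 array left out they ran from -0.25 to 0.023 for Bad 1416583_at, -0.18 to 0.068 for Bcl2 1422938_at, -0.017 to 0.11 for Bcl2 1457687_at, -0.12 to 0.031 for Bcl2 1443837_x_at, -0.056 to 0.057 for Bcl2l11 1435449_at, -0.089 to 0.14 for Bcl2 1437122_at, -0.085 to 0.070 for Mcl1 1416881_at and -0.020 to 0.12 for Bcl2l11 1456006_at. Depth does not apply to arrays, and the 19 probe sets with a mean under 4 limit what can be resolved.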
